A study of Mus musculus with 4 samples.

Results

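Nuclear genes for the subunits of oxidative phosphorylation were described in mouse bone marrow-derived macrophages exposed to extracellular vesicles (EVs), complex by complex. The members were the protein-coding genes of the deposited table whose symbols begin with Nduf followed by a, b, c, s or v, with Uqcr, with Cox4 to Cox8 or with Atp5, together with Sdha, Sdhb, Sdhc and Sdhd. This gave 92 of the 38087 genes in the table. By textbook role, 36 belong to complex I, 4 to complex II, 8 to complex III, 20 to complex IV and 16 to complex V, and the other 8 are assembly or accessory factors (Ndufaf1 to Ndufaf6, Atp5s and Atp5sl). Ndufa4 and Ndufa4l2 were counted with complex IV, where the Ndufa4 protein resides. Atp5l-ps1, whose symbol marks it as a copy of Atp5l, is listed as protein coding and was kept with complex V.

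The macrophages were grown from bone marrow of C57BL/6 mice aged 6 to 8 weeks, in culture for 5 to 7 days with L929-conditioned medium at 30%. The miR-93 EV cells and the miR-17 EV cells had been exposed for 16 h to EVs of Beas2B, a human lung epithelial cell line, that had been transfected with mimics of that microRNA. The control EV cells had received Beas2B EVs with scrambled control RNAs, and the unexposed cells, labelled WT, have no EV exposure named. Each group was a single library made from pooled RNA of 4 biological replicates. The spread between cultures was therefore not measured, no test between conditions was possible, and every value below describes these 4 libraries. In bulk RNA, a change in the number of cells of a type and a change in RNA per cell cannot be told apart.

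Oxidative phosphorylation couples the oxidation of nutrients to ATP synthesis across the inner mitochondrial membrane. The roles given below are textbook ones, many of them worked out on the human or bovine proteins. Complex I takes electrons from NADH and complex II takes them from succinate. Ubiquinone carries them to complex III, cytochrome c carries them on to complex IV, which reduces oxygen, and complex V uses the resulting proton gradient to make ATP. Most subunits are encoded in the nucleus and are imported into mitochondria, where they are assembled with a small set encoded by mitochondrial DNA, which is not analysed here. In macrophages the chain is known for its remodelling during inflammatory activation, when succinate and complex II become sources of signals.

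The mimics belong to a microRNA family with a common seed, and the sequences are shown because they define what the mimics could pair with. The mature mouse strands from RefSeq (GRCm38.p6) are printed 5′ to 3′ with the seed, bases 2 to 8, in capitals. The labels do not say which arm the mimics carry, and the 5p arms are given. The strands lie at chr5:138165574-138165596 on the minus strand for miR-93 and at chr14:115043684-115043706 on the plus strand for miR-17.
mmu-miR-93-5p: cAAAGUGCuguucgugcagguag
mmu-miR-17-5p: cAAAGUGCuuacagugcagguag
The complement of the seed, GCACTTT, was sought in the longest annotated 3′ untranslated region of each gene. It stood in 3 of 91 members with such a region, 3.30%, against 1814 of 12413 protein-coding genes measured in these libraries, 14.6%. The members were not filtered by level. The regions of the members were short, with a median of 201 bases, against 1185 bases for the protein-coding genes. The matches of Ndufa10 (chromosome 1, 92439403 to 92439409), Ndufb2 (chromosome 6, 39603296 to 39603302) and Sdhd (chromosome 9, 50597068 to 50597074), in GRCm38 coordinates, are printed on the strand of the gene with the seed match in capitals.
Ndufa10: cacccacccctGCACTTTgggtctctcaca
Ndufb2: tcaattacataGCACTTTttggggggttgg
Sdhd: cctgggtgcaGCACTTTgattgtgtgcct
A match is a description and not a shown target site. Ndufa10, an accessory subunit of complex I, was level: 1683 normalized counts in miR-93 EV, 1667 in miR-17 EV, 1672 in control EV and 1716 in unexposed. Ndufb2, another accessory subunit of complex I, had 329.5 in miR-93 EV, 355 in miR-17 EV, 397 in control EV and 277 in unexposed. Sdhd, the small membrane anchor of complex II, had 1576 in miR-93 EV, 1587 in miR-17 EV, 1905 in control EV and 1518 in unexposed. For Ndufb2 and Sdhd control EV was the highest library and unexposed the lowest, with both mimic libraries between them. Over control EV, Sdhd was 0.827-fold in miR-93 EV (95% interval 0.773 to 0.886) and 0.833-fold in miR-17 EV (0.778 to 0.891). Over unexposed it was 1.04-fold in miR-93 EV (0.968 to 1.11) and 1.05-fold in miR-17 EV (0.975 to 1.12). Protein-coding genes with a site had median log2 ratios over control EV of -0.008 in miR-93 EV and 0.001 in miR-17 EV, no lower than the -0.02 in each for those without a site.

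Promoters were searched for motifs of factors known to drive nuclear genes of the respiratory chain. The motifs were GCGCATGC, the core of the NRF1 motif, CCGGAAG, bound by ETS factors such as GABP, and AAGATGGCG, bound by YY1, on both strands of the window from 250 bases before to 50 bases after the gene start. RefSeq promoters (GRCm38.p6) matched 75 of the 92 members. The NRF1 core stood in 12 of them (16.0%), against 5.96% of 9978 protein-coding genes measured in these libraries and 3.05% of all 27025 genes with a promoter. The YY1 motif stood in 8 (10.7%) against 3.55% of the measured protein-coding genes and 1.64% of all genes. The ETS motif stood in 17 (22.7%) against 19.98% and 9.93%. The promoters of Cox6a1 (chr5:115348909-115349208, minus strand) and Uqcr11 (chr10:80406772-80407071, minus strand) are shown because they hold both the NRF1 core and the ETS motif, and because Cox6a1 was the most abundant member per length. Capitals mark the matches, and the run GCGCATGCGC in Cox6a1 is a match on both strands that overlap.
Cox6a1: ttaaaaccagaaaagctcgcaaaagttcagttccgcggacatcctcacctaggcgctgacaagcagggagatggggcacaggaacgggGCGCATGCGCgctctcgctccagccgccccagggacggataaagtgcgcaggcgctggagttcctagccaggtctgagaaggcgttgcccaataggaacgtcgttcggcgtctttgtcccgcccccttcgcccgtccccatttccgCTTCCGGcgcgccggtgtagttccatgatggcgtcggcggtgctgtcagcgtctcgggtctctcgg
Uqcr11: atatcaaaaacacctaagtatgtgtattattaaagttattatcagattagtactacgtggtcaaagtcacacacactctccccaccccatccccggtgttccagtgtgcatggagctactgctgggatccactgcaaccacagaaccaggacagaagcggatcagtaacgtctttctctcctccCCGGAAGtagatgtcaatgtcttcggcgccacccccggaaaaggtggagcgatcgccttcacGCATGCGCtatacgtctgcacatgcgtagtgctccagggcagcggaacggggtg
The 12 members with the NRF1 core had median log2 ratios of 0.15 in miR-93 EV and 0.22 in miR-17 EV over control EV, against 0.02 and -0.02 in the 60 measured members without it. Over unexposed the medians were 0.09 with and 0.04 without the core in miR-93 EV, and 0.04 with and 0.05 without it in miR-17 EV. In both pairs over control EV, 7 of the 12 were above 0 and 5 below. For the ETS motif the medians over control EV were 0.06 with and 0.02 without it in miR-93 EV, and 0.12 and -0.02 in miR-17 EV. For the YY1 motif they were 0.04 with and 0.02 without it in miR-93 EV, and -0.03 and -0.004 in miR-17 EV. These medians are descriptions, and no difference between the classes was tested.

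The libraries held 17815250 to 22607247 reads in genes. Size factors were 1.10 in miR-93 EV, 1.13 in miR-17 EV, 0.854 in control EV and 0.949 in unexposed. All macrophage markers examined were high (a summed 615473 to 748226 normalized counts over Adgre1, Cd68, Csf1r, Lyz2, Itgam, Cd14, Fcgr1 and Mertk), while epithelial markers summed to 9.48 to 14.2. In control EV the macrophage sum was the highest of the 4 libraries, while its neutrophil and osteoclast sums were the lowest, but single markers differed in direction. Also lowest in control EV were the sums for T and NK cells (1655, of which Il7r was 1647), mast cells and basophils (59.7) and fibroblasts and stroma (73.8). The dendritic cell sum was highest in control EV, at 311.5. Lyz2 made up most of the macrophage sum, at 491453 in miR-93 EV, 475861 in miR-17 EV, 596249 in control EV and 512117 in unexposed. Cd68 was lowest in control EV at 19446, and Itgam (23878 in control EV and 25261 in unexposed) and Mertk (1959 in control EV and 2305 in unexposed) were lower there than in unexposed. In the osteoclast list, Acp5 was lowest in control EV at 1025, while Ctsk was highest there at 388. The neutrophil sum was 1108 in miR-93 EV, 1139 in miR-17 EV, 720.3 in control EV and 997 in unexposed, and the osteoclast sum was 2031, 1774, 1415 and 2338 in the same order. Of the defining genes, Ly6g and Elane of neutrophils were at 0 or 1 read in every library and Calcr, an osteoclast gene, was at 2 to 7 reads. Reads were also longest in control EV, with 91.2 aligned bases per read over the members in miR-93 EV, 88.6 in miR-17 EV, 103 in control EV and 93.8 in unexposed. The part of these differences in the results was not tested.

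The members took a nearly constant share of each library. They received 0.604% of reads in miR-93 EV (95% exact interval 0.601 to 0.607), 0.604% in miR-17 EV (0.601 to 0.607), 0.581% in control EV (0.578 to 0.585) and 0.580% in unexposed (0.577 to 0.584). After scaling with median-of-ratios size factors the summed level was 121669 normalized counts in miR-93 EV, 121147 in miR-17 EV, 121313 in control EV and 120486 in unexposed. Of the 92 members, 86 reached a mean of 20 normalized counts in every pair of libraries. The other 6, all of complex IV, did not reach it in any pair: Cox4i2, Cox6b2, Cox7b2, Cox8b, Cox8c and Ndufa4l2. Over the 4 libraries, the highest level of a member was a median of 1.24 times its lowest, 44 of the 86 had a highest level at most 25% above their lowest and 76 stayed within 1.5-fold.

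Levels were compared between genes as normalized counts per kb of annotated exon, averaged over the 4 libraries. Complex IV held the most abundant member and also the least abundant ones. Cox6a1, a small nuclear subunit of complex IV, led all members at 6003 per kb in miR-93 EV, 5804 in miR-17 EV, 4758 in control EV and 5659 in unexposed. Cox8a, another small subunit, followed within that complex at 3785, 3676, 3935 and 3848 in the same order of libraries. In complex V, Atp5a1, the alpha subunit of the catalytic head, had 3089 in miR-93 EV, 3224 in miR-17 EV, 3301 in control EV and 3220 in unexposed. Atp5o, a stalk subunit, had 2887 in miR-93 EV, 2913 in miR-17 EV, 3400 in control EV and 3316 in unexposed, but its deposited span of 247290 bases contains other genes, Itsn1 among them, so its reads are uncertain.

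Complexes I to III were led by members of similar level. In complex I the top members were the accessory subunits Ndufa2, at 2232 per kb in miR-93 EV, 2714 in miR-17 EV, 2047 in control EV and 2353 in unexposed, and Ndufa13 (also known as GRIM-19), at 1516, 1297, 1746 and 1562 in that order. Both overlap another gene, Tmco6 for Ndufa2 and Yjefn3 for Ndufa13, and Yjefn3 is listed with as many reads as Ndufa13. In complex II, Sdhb, the iron-sulfur subunit, had 1439 per kb in miR-93 EV, 1378 in miR-17 EV, 1635 in control EV and 1363 in unexposed, and Sdhd came next. In complex III, Uqcrh, the hinge protein, had 1773 per kb in miR-93 EV, 1740 in miR-17 EV, 2127 in control EV and 1624 in unexposed, and Uqcr10, a small membrane subunit, had 1291, 1387, 1414 and 1377 in that order. Median levels per kb were 421 in complex I, 1261 in complex II, 789 in complex III, 381 in complex IV and 514 in complex V. The 8 assembly and accessory factors lay lower, with a median of 66.0 per kb and a highest of 119.

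**Figure D1:**
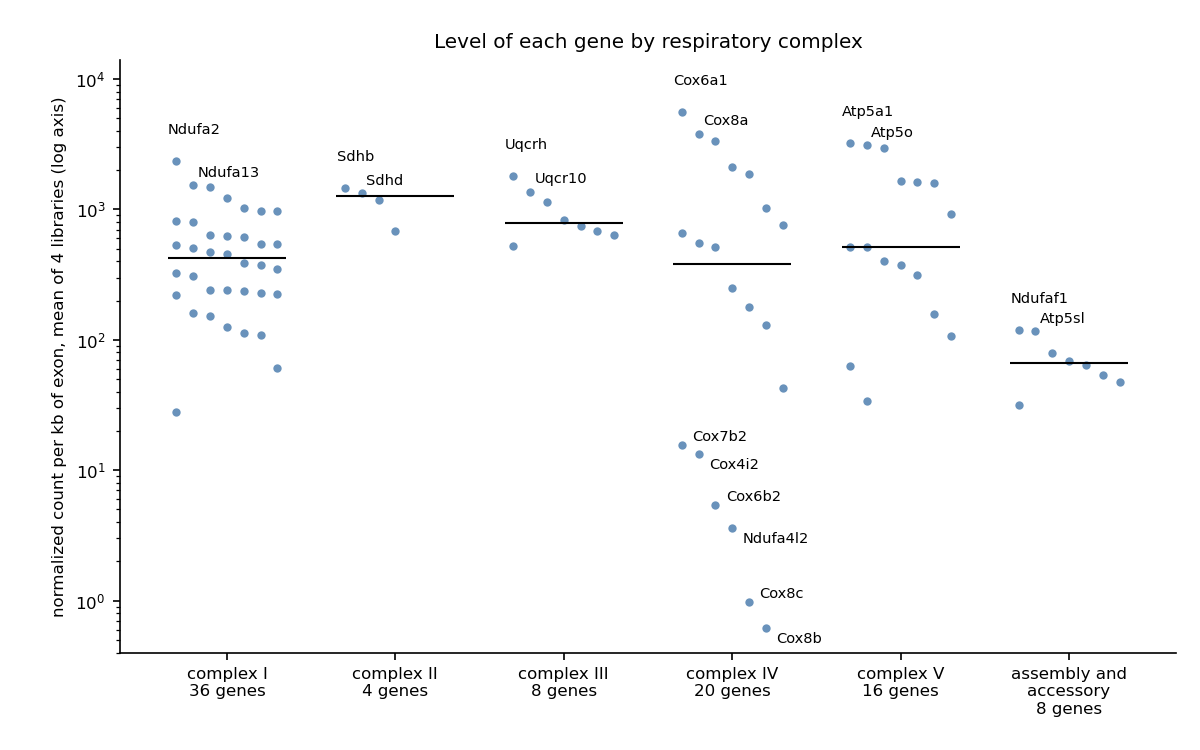
Each point is a gene, placed by its mean level over the 4 libraries in normalized counts per kb of exon on a log axis, in columns by complex, with a line at the median of the column. The 2 highest genes of each column are named, as are the complex IV genes under 20 per kb. Cox6a1 stands highest at 5556 and complex IV spans the widest range, while the assembly and accessory factors have none above 119.

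Complex IV is known for subunits encoded by alternative genes, a widely used form and forms typical of heart and muscle, lung or testis. In every library the widely used form was far above the alternative. Cox4i1 exceeded Cox4i2, the lung form, by 199.5- to 395-fold per kb, Cox6a1 exceeded Cox6a2, the heart and muscle form, by 40.04- to 47.8-fold, and Cox7a2 exceeded Cox7a1, also a heart and muscle form, by 15.9- to 23.1-fold. Cox7b exceeded Cox7b2, a testis form, by 32.8- to 53.4-fold. Cox4i1 overlaps Gm20388, a gene model listed with more reads, and Cox6a2 overlaps Itgad, so the levels of both may hold reads of the other gene.

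The remaining alternatives were close to the counting floor. Cox6b2, a testis form, had 15 reads in miR-93 EV, 8 in miR-17 EV, 0 in control EV and 3 in unexposed, where 3 reads, the limit that a count of 0 allows, are worth 2.66 to 3.51 normalized counts. Cox8b and Cox8c, further muscle and testis forms, had 1 and 2 reads in miR-17 EV and 0 in the other 3 libraries. Ndufa4l2, known as a hypoxia-induced relative of Ndufa4, had 4 reads in miR-93 EV, 7 in miR-17 EV, 5 in control EV and 0 in unexposed. Counting intervals were wide: Cox6b2 was 4.30-fold in miR-93 EV over unexposed, with an interval of 1.22 to 23.1, and its intervals in miR-93 EV and miR-17 EV over control EV, which had 0 reads, also left out 1. The intervals of Ndufa4l2 left out 1 in miR-17 EV and control EV over unexposed, which had 0 reads. None of these genes reached the minimum level for a call. Among the 3 genes for the identical mature c subunit of the complex V rotor, Atp5g3 led at 1606 per kb in miR-93 EV, 1631 in miR-17 EV, 1665 in control EV and 1649 in unexposed, 22.8 to 32.8 times Atp5g1 and 8.98 to 12.7 times Atp5g2.

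**Figure D2:**
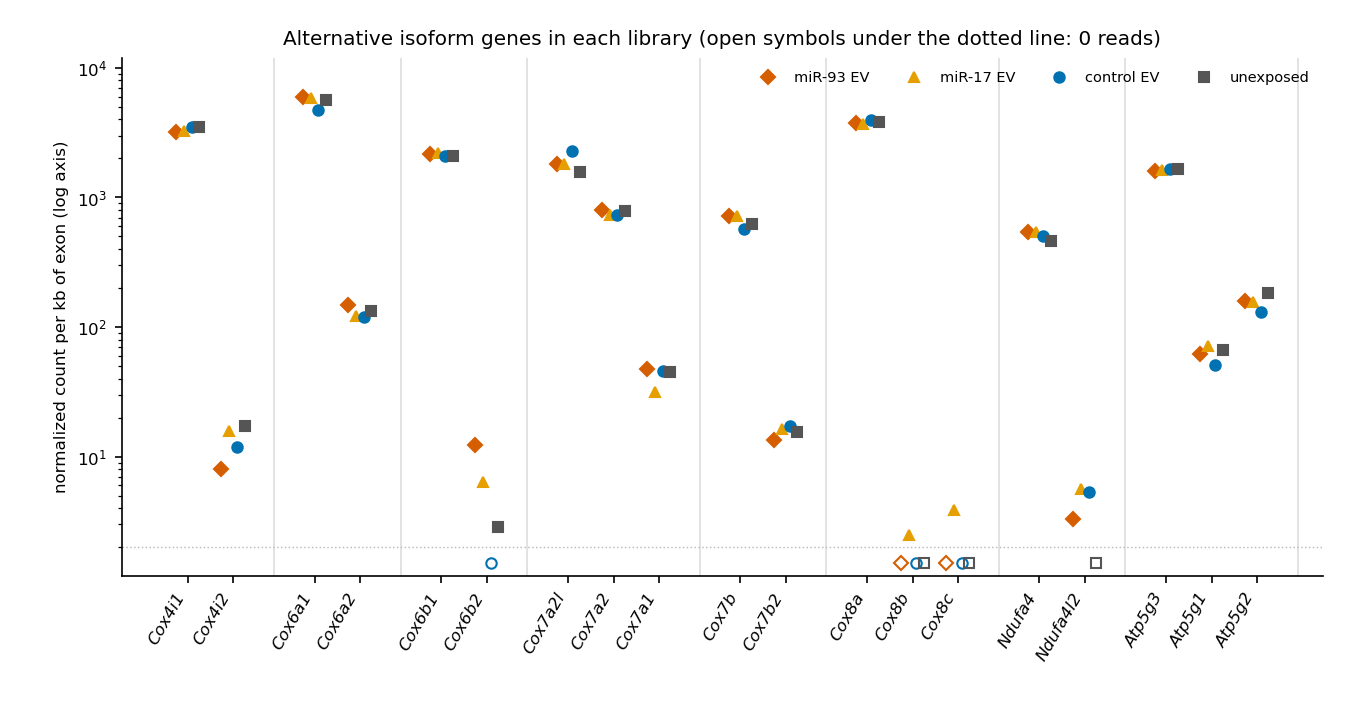
Normalized count per kb of exon on a log axis for alternative isoform genes, with a symbol for each library. Open symbols under the dotted line are libraries with 0 reads. In each family of complex IV the widely used gene stands far above its tissue or hypoxia-induced form. Cox7a2l, a relative drawn with Cox7a2 and Cox7a1, stands at 2.01 to 3.13 times Cox7a2. Atp5g3 stands 8.98-fold or more above Atp5g1 and Atp5g2.

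A member was called higher or lower in a pair of libraries when it was at least 25% above the other library, or lower by the inverse of that ratio, its 95% exact interval left out 1 and its level averaged 20 normalized counts or more. The interval covers counting error only, and reads made by PCR without molecular identifiers are not independent molecules. Members had more reads than most genes, with medians of 816 to 846 normalized counts over the pairs against 375 to 386 for all genes tested, and deeper genes are called more readily. The same shares among genes with a mean of at least 100 normalized counts are therefore given for the pairs with control EV. In total, 46 of the 86 measured members were called in no pair.

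**Figure D3:**
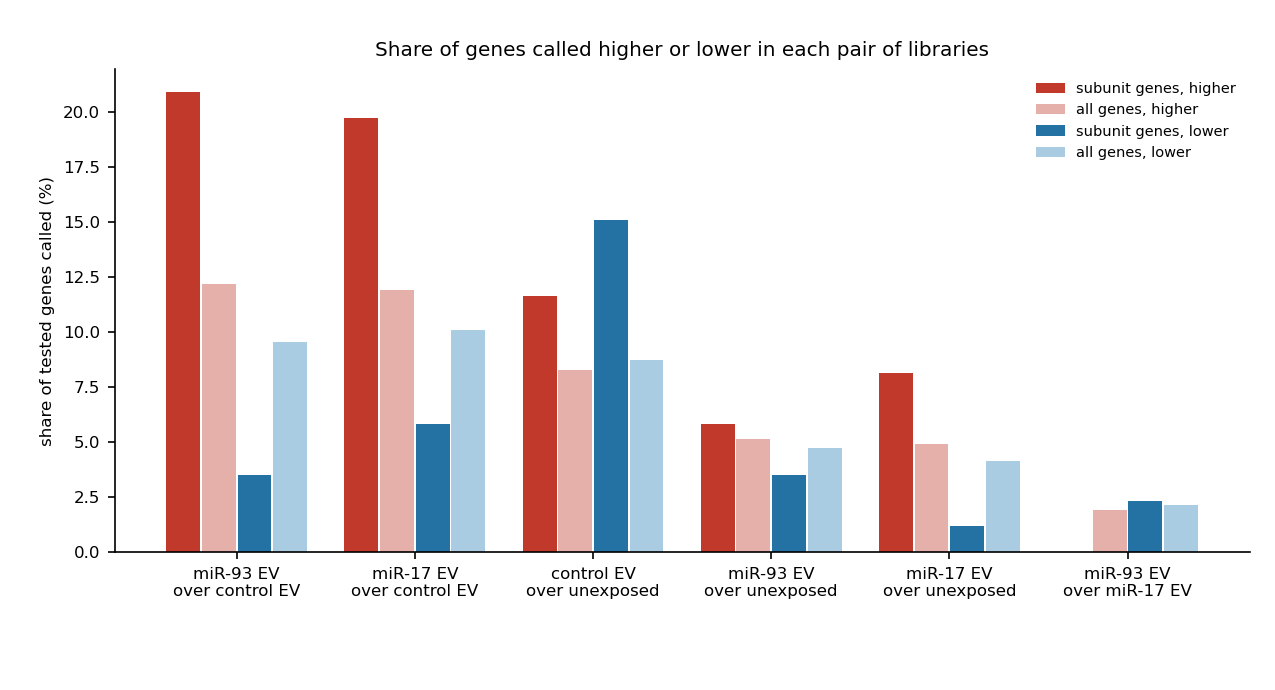
Share of tested genes called higher (red) and lower (blue) in each pair of libraries, for the 86 measured subunit and factor genes (dark bars) and for all genes (pale bars), in percent from 0. In both pairs of a mimic library over control EV the dark red bar stands above the pale red bar and the dark blue bar below the pale blue bar, while the miR-93 EV over miR-17 EV pair has no dark red bar.

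Over control EV, more members were called higher than lower in both mimic libraries, which share that control. In miR-93 EV 18 of 86 were called higher (20.9%, against 12.2% of all genes) and 3 were called lower (3.49% against 9.56%). In miR-17 EV 17 of 86 were called higher (19.8% against 11.9%) and 5 were called lower (5.81% against 10.1%). Of the 23 members with near-identical copies, treated below, 9 were called higher in miR-93 EV and 8 in miR-17 EV. Of the 62 measured members without such copies, 8 were called higher in each. With the authors' deposited log2 values, which allow no interval, 25 were past the threshold higher and 10 lower in miR-93 EV, and 30 higher and 12 lower in miR-17 EV. The share of all genes past the threshold with those values was not computed, so these counts have no background beside them. Among genes of at least 100 normalized counts the shares called higher were 22.2% of 81 members and 12.3% of all genes in miR-93 EV, and 21.0% and 11.8% in miR-17 EV. The median log2 ratio of the members was 0.02 in miR-93 EV and 0.00 in miR-17 EV, beside -0.02 over all genes in each, with 46 members above and 40 below 0 in miR-93 EV and 43 above and 43 below in miR-17 EV. Under the alternatives these medians ran from -0.001 to 0.14 in miR-93 EV and from -0.02 to 0.12 in miR-17 EV.

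All calls in complex V over control EV were higher. Of its 16 members, 4 were called higher and 0 lower in miR-93 EV over control EV, while miR-17 EV had 5 higher and 0 lower, with medians of 0.18 and 0.22 on the log2 scale. Over all genes, 12.2% were called higher and 9.56% lower in miR-93 EV, and 11.9% and 10.1% in miR-17 EV. The summed level of complex V was 1.03 times that of control EV in miR-93 EV (95% interval 1.01 to 1.04) and 1.03 times in miR-17 EV (1.02 to 1.04). The median was above 0 under every alternative tried, from 0.15 to 0.31 in miR-93 EV and from 0.12 to 0.46 in miR-17 EV.

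The members of complex V that differed included parts of the central stalk and of the peripheral stalk. Atp5d (chromosome 10, 80138632 to 80145818), the delta subunit of the central stalk, had 3476 normalized counts in miR-93 EV, 3311 in miR-17 EV, 2343 in control EV and 3229 in unexposed. Atp5e (chromosome 2, 174461072 to 174464105), the epsilon subunit beside it, had 3335 in miR-93 EV, 3165 in miR-17 EV, 2269 in control EV and 2855 in unexposed. For both genes control EV was the lowest library, and Atp5e in miR-93 EV was 1.17-fold of unexposed (1.11 to 1.23). Over control EV, Atp5d was 1.48-fold in miR-93 EV (1.40 to 1.57) and 1.41-fold in miR-17 EV (1.34 to 1.49). Atp5e was 1.47-fold in miR-93 EV (1.39 to 1.55) and 1.39-fold in miR-17 EV (1.32 to 1.48). Atp5f1 (chromosome 3, 105942698 to 105960099), the b subunit of the peripheral stalk, had 1787 in miR-93 EV, 1723 in miR-17 EV, 1195 in control EV and 1437 in unexposed. It was 1.496-fold in miR-93 EV (1.39 to 1.61) and 1.44-fold in miR-17 EV (1.34 to 1.56) over control EV, it overlaps Wdr77, and 26.2% of the 40-base stretches of its transcript also stand in other genes.

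Atp5l-ps1 had the largest ratio of any measured member. It had 172.9 normalized counts in miR-93 EV, 193.5 in miR-17 EV, 94.9 in control EV and 184.4 in unexposed. Control EV was again the lowest library, at 0.514 times unexposed (0.390 to 0.673). As a copy of Atp5l its reads cannot be told apart from those of the parent gene with certainty.

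In complex I, 8 of 36 members were called higher and 1 lower in miR-93 EV over control EV, and 7 higher and 2 lower in miR-17 EV. The shares over all genes were 12.2% higher and 9.56% lower in miR-93 EV, and 11.9% and 10.1% in miR-17 EV. Ndufa11 (chromosome 17, 56717762 to 56724248), an accessory subunit of the membrane arm, had 468.0 normalized counts in miR-93 EV, 479.2 in miR-17 EV, 281.1 in control EV and 406.8 in unexposed. It was 1.67-fold in miR-93 EV (1.43 to 1.95) and 1.70-fold in miR-17 EV (1.46 to 1.99) over control EV. Ndufb6, an accessory subunit of the membrane arm, had 590.2 in miR-93 EV, 602.6 in miR-17 EV, 394.7 in control EV and 515.3 in unexposed. Both genes were lowest in control EV. The other complex I members called higher over control EV were Ndufa7, Ndufb4, Ndufb7, Ndufb11, Ndufc1 and Ndufs3 in miR-93 EV, with ratios of 1.26 to 1.46, and Ndufa2, Ndufb11, Ndufc1 and Ndufs3, with ratios of 1.252 to 1.39, beside Ndufa3 in miR-17 EV. Ndufa3, an accessory subunit, had 296.9 in miR-93 EV, 379.8 in miR-17 EV, 243.6 in control EV and 345.7 in unexposed. Here miR-17 EV was the highest library and miR-93 EV lay between unexposed and control EV. With the authors' deposited log2 values Ndufa3 was level, at a difference of 0.01 in miR-17 EV over control EV and of 0.13 in control EV over unexposed.

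Some complex I members were lower with a mimic than in control EV. Ndufa13 had 1896 normalized counts in miR-93 EV, 1622 in miR-17 EV, 2184 in control EV and 1954 in unexposed, and was called in miR-17 EV (0.743-fold over control EV, 0.696 to 0.793). Ndufb5, an accessory subunit of the membrane arm, had 1066 in miR-93 EV, 941.6 in miR-17 EV, 1253 in control EV and 1122 in unexposed, and was also called in miR-17 EV (0.751-fold, 0.690 to 0.819). Ndufs5, an accessory subunit, had 269.8 in miR-93 EV, 287.5 in miR-17 EV, 353.7 in control EV and 297.2 in unexposed, and was called in miR-93 EV (0.763-fold, 0.648 to 0.898). In each of these genes control EV was the highest library.

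Complexes III and IV held members in both directions. In complex III, 2 of 8 were called higher and 0 lower in each mimic library over control EV. Over all genes, 12.2% were called higher and 9.56% lower in miR-93 EV, and 11.9% and 10.1% in miR-17 EV. Uqcrb, a small subunit near the quinone sites, had 614.7 normalized counts in miR-93 EV, 622.1 in miR-17 EV, 426.3 in control EV and 561.7 in unexposed, and 49.0% of its 40-base stretches stand elsewhere. Uqcr11, the smallest subunit, had 852.8 in miR-93 EV, 788.9 in miR-17 EV, 582.1 in control EV and 711.3 in unexposed. Control EV was the lowest library for both, whereas the complex III median over control EV was -0.12 in miR-93 EV and -0.09 in miR-17 EV. With the authors' deposited log2 values those medians were 0.001 in miR-93 EV and 0.08 in miR-17 EV.

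In complex IV, 4 of 14 measured members were called higher and 1 lower in miR-93 EV over control EV, and 3 higher and 1 lower in miR-17 EV. The shares over all genes were 12.2% higher and 9.56% lower in miR-93 EV, and 11.9% and 10.1% in miR-17 EV. Cox5b, a zinc-binding subunit, had 422.8 normalized counts in miR-93 EV, 453.5 in miR-17 EV, 299.8 in control EV and 411.0 in unexposed, with control EV the lowest. The others called higher over control EV were Cox6a1, Cox6c and Cox7b in miR-93 EV, with ratios of 1.26 to 1.43, and Cox6c and Cox7b in miR-17 EV, with ratios of 1.33 and 1.28. The lower member was Cox7a2l (chromosome 17, 83501919 to 83514333), known for its part in joining complexes III and IV into supercomplexes. It had 2693 in miR-93 EV, 2700 in miR-17 EV, 3387 in control EV and 2330 in unexposed. Control EV was the highest library, and the ratio over control EV was 0.795 in miR-93 EV (0.755 to 0.837) and 0.797 in miR-17 EV (0.757 to 0.839). Over unexposed it was 1.16 in miR-93 EV (1.09 to 1.22) and 1.16 in miR-17 EV (1.10 to 1.22), which is under the threshold.

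**Figure D4:**
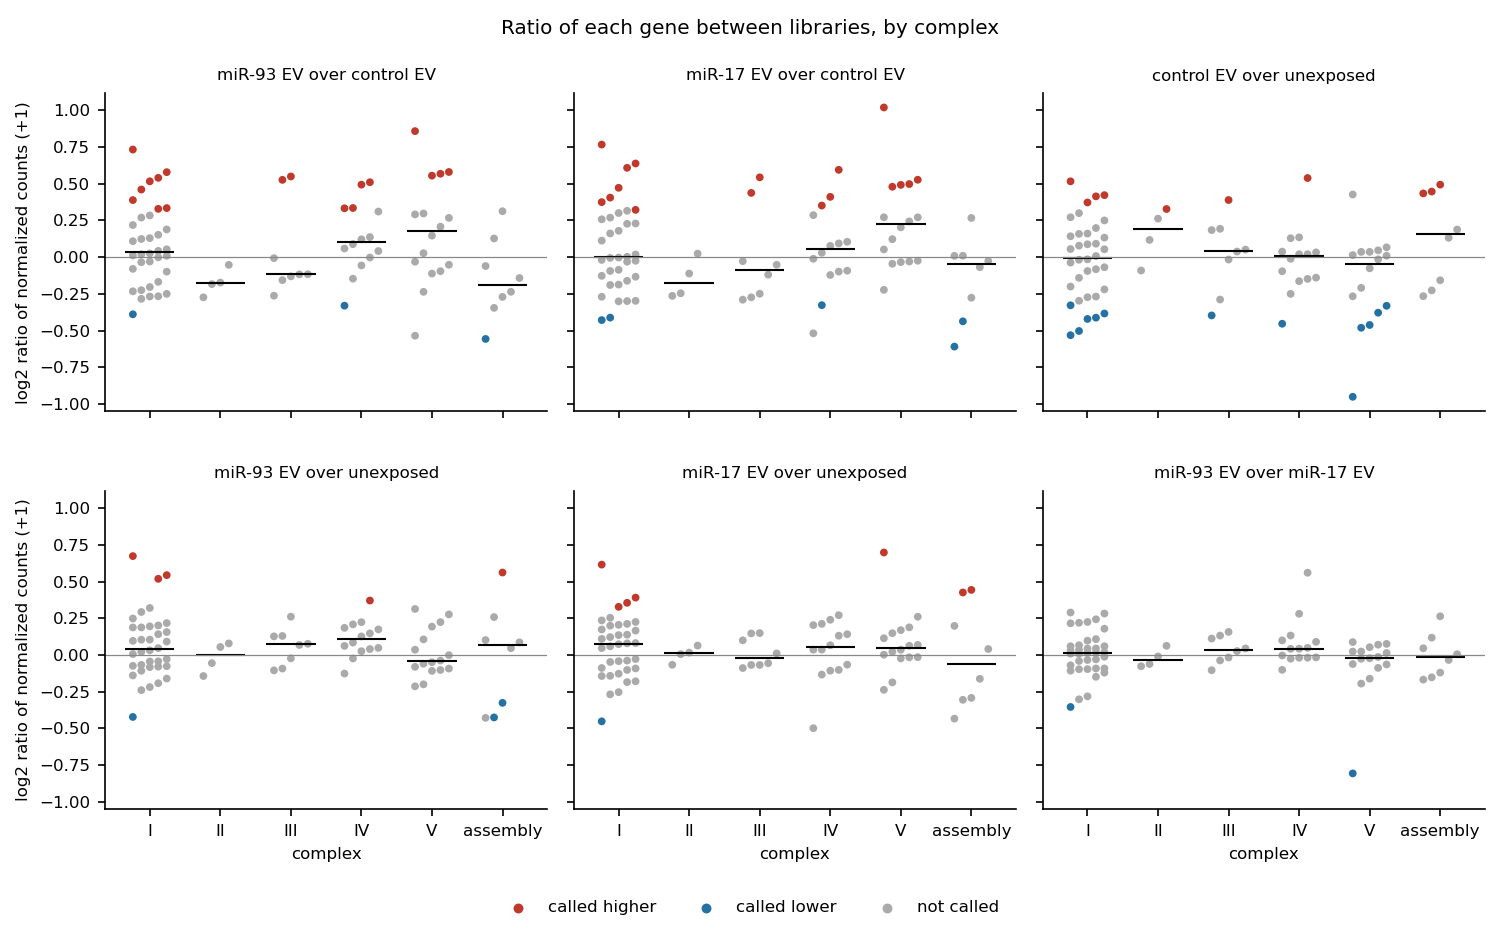
Log2 ratio of each measured gene in 6 pairs of libraries, in columns by complex, with a line at the median of each column; red and blue points are genes called higher and lower. Complex V shows only red calls in the pairs of a mimic library over control EV and only blue calls in control EV over unexposed, and the panels without control EV have few calls.

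Control EV over unexposed had the most calls of the 3 pairs over unexposed. Of 86 members, 10 were called higher (11.6%, against 8.26% of all genes) and 13 were called lower (15.1% against 8.72%), with a median log2 ratio of 0.01 beside 0.00 for all genes. Among genes of at least 100 normalized counts, 12.3% of 81 members were called higher and 16.0% lower, against 8.82% and 8.65% of all genes. Control EV was the lowest of the 4 libraries for 32 of the 86 and the highest for 30, where it was the lowest for 32.5% and the highest for 34.1% of 12879 protein-coding genes. Calls by complex, higher then lower, were 4 and 6 in complex I, 1 and 0 in complex II, 1 and 1 in complex III, 1 and 1 in complex IV, 0 and 5 in complex V, and 3 and 0 among assembly and accessory factors.

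The 5 members of complex V lower in control EV were Atp5d (0.726-fold of unexposed, 0.686 to 0.768), Atp5e (0.795-fold, 0.749 to 0.843), Atp5l-ps1 and the rotor genes Atp5g1 (0.769-fold, 0.642 to 0.918) and Atp5g2 (0.716-fold, 0.592 to 0.862). Atp5g3, which makes most of the c subunit transcripts, was level at 3632 normalized counts in control EV and 3597 in unexposed. In counts the large catalytic subunits differed little: Atp5b, the beta subunit, had 12776 in control EV and 12196 in unexposed, and Atp5a1 had 10350 in control EV and 10095 in unexposed. The authors' deposited log2 values had the opposite sign for both in control EV over unexposed, at -0.31 for Atp5b and -0.14 for Atp5a1. The summed level of complex V was 0.976 times unexposed (0.963 to 0.989).

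The members called higher in control EV came from complexes I to IV and from the factors. Cox7a2l was 1.45-fold of unexposed (1.37 to 1.54), Uqcrh was 1.31-fold (1.23 to 1.39) and Sdhd was 1.26-fold (1.17 to 1.35). Ndufv2, a core iron-sulfur subunit of the NADH-binding arm, had 1368 normalized counts in control EV and 1020 in unexposed, a ratio of 1.34 (1.23 to 1.46). Ndufb2 was 1.43-fold of unexposed (1.22 to 1.69), and its span overlaps Braf, a gene listed with more reads.

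For a few members the 3 exposed libraries lay on the same side of unexposed. Ndufv3 (chromosome 17, 31520115 to 31531321), an accessory subunit of the NADH-binding arm, had 963.2 normalized counts in miR-93 EV, 943.3 in miR-17 EV, 963.9 in control EV and 1291 in unexposed. Its 3 exposed libraries lay within counting error of each other, all below unexposed, at 0.746-fold in miR-93 EV (0.687 to 0.811), 0.731-fold in miR-17 EV (0.672 to 0.794) and 0.747-fold in control EV (0.683 to 0.816). These 3 ratios share the unexposed library, so they are not independent of each other. Ndufab1, the mitochondrial acyl carrier protein that is also a complex I subunit, was above unexposed in each exposed library, with 221.8 in miR-93 EV, 190.8 in miR-17 EV, 202.6 in control EV and 151.8 in unexposed. Ndufaf3, an assembly factor, had 163.9 in miR-93 EV, 150.9 in miR-17 EV, 149.9 in control EV and 110.7 in unexposed, and was called higher in each, but its ratio in control EV turned to -0.09 on the log2 scale with the authors' deposited log2 values.

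**Figure D5:**
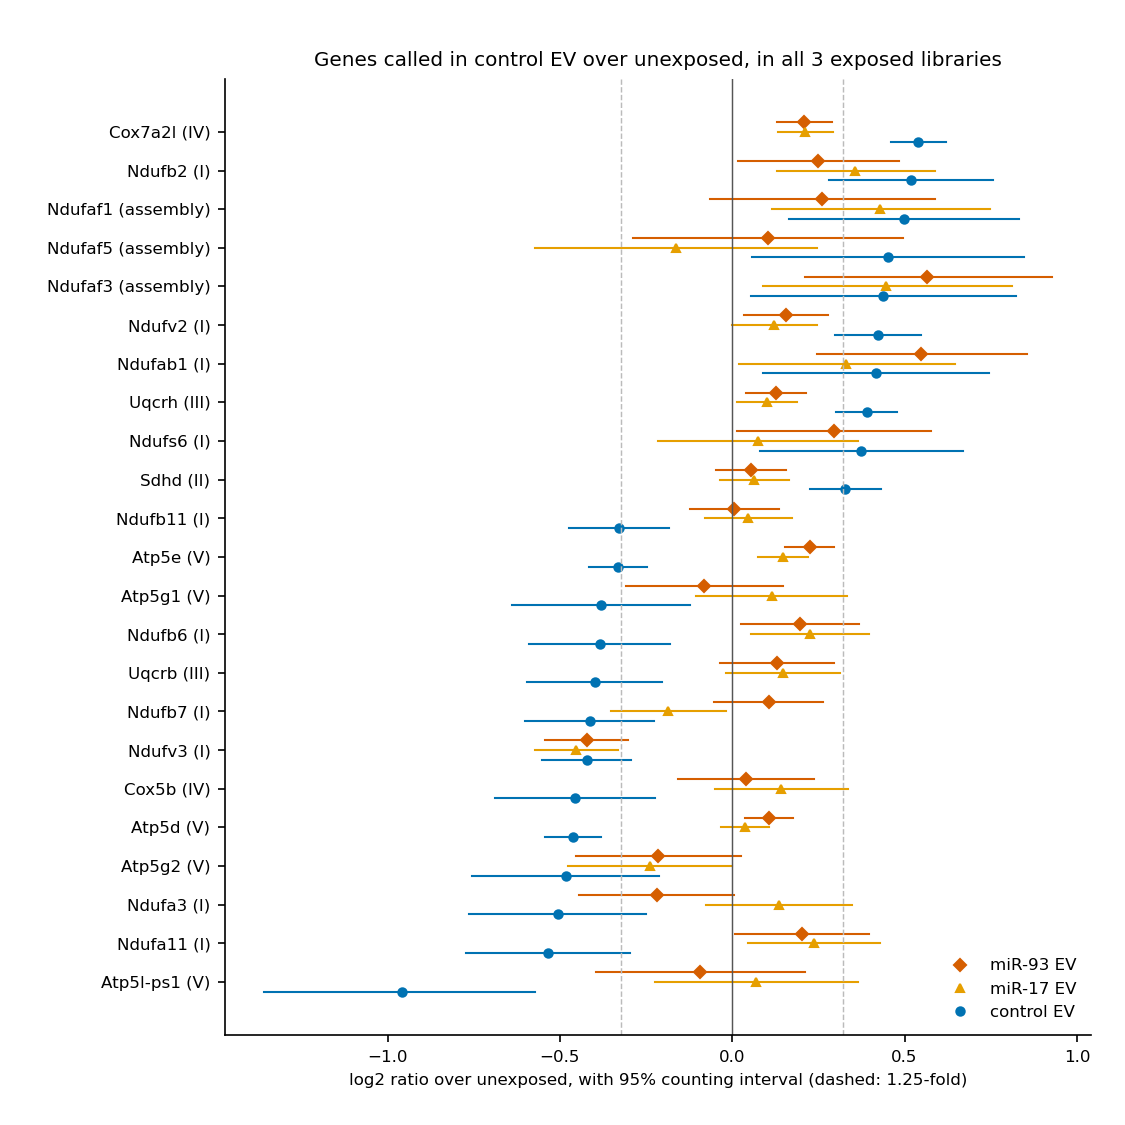
Log2 ratio over unexposed in miR-93 EV (diamonds), miR-17 EV (triangles) and control EV (circles) for the 23 genes called in control EV, with 95% counting intervals and dashed lines at the threshold for a call. All 3 ratios of a gene share the unexposed library. For Atp5d the circle lies at -0.46 with both mimic symbols near 0, while for Ndufv3 all 3 symbols lie together between -0.45 and -0.42.

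Over unexposed the mimic libraries had fewer calls. In miR-93 EV 5 of 86 members were called higher (5.81%, against 5.14% of all genes) and 3 lower (3.49% against 4.71%), close to the background. With TMM scaling the split became 7 higher and 2 lower, and with total counts 9 higher and 2 lower. The shares over all genes under these scalings were not computed. In miR-17 EV 7 were called higher (8.14% against 4.92%) and 1, Ndufv3, was called lower (1.16% against 4.14%). Median log2 ratios were 0.05 in miR-93 EV and 0.04 in miR-17 EV, beside -0.01 for all genes in each, and ran under the alternatives from -0.004 to 0.09 in miR-93 EV and from 0.01 to 0.09 in miR-17 EV.

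Over unexposed, 3 of the 36 complex I members were called higher and 1 lower in miR-93 EV, and 4 higher and 1 lower in miR-17 EV. The shares over all genes were 5.14% higher and 4.71% lower in miR-93 EV, and 4.92% and 4.14% in miR-17 EV. Ndufa12, an accessory subunit of the matrix arm, had 417.3 normalized counts in miR-93 EV, 446.4 in miR-17 EV, 358.4 in control EV and 290.9 in unexposed. It was 1.43-fold in miR-93 EV (1.23 to 1.67) and 1.53-fold in miR-17 EV (1.32 to 1.78), and 27.8% of its 40-base stretches stand elsewhere. Ndufb4, an accessory subunit of the membrane arm, had 268.0 in miR-93 EV, 220.1 in miR-17 EV, 183.9 in control EV and 167.6 in unexposed. It was 1.60-fold in miR-93 EV (1.31 to 1.95) and 1.31-fold in miR-17 EV (1.07 to 1.61), and 37.7% of its stretches stand elsewhere. For both genes unexposed was the lowest library and the mimic libraries the highest. Cox6c, a subunit of complex IV that overlaps Vps13b, had 751.4 in miR-93 EV, 701.1 in miR-17 EV, 527.0 in control EV and 580.7 in unexposed. It was called in miR-93 EV (1.29-fold, 1.16 to 1.44).

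Between the mimic libraries, 0 of 86 members were called higher in miR-93 EV over miR-17 EV (0%, against 1.92% of all genes) and 2 were called lower (2.33% against 2.15%). Ndufa3 was 0.782-fold (0.675 to 0.905), while the authors' deposited log2 values differed by -0.05. Atp5k, the e subunit of complex V, had 49.8 normalized counts in miR-93 EV, 87.9 in miR-17 EV, 72.6 in control EV and 53.7 in unexposed. It falls under 100 normalized counts and is named after its values were seen, as the other member called in that pair. Atp5k was also called higher in miR-17 EV over unexposed, at 0.70 on the log2 scale, the largest ratio of a measured member there. The 84 remaining members had ratios that were under the threshold or within counting error.

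Complex II, which oxidises succinate, had its highest summed count in control EV. Its 4 members summed to 11545 normalized counts in miR-93 EV, 11735 in miR-17 EV, 12981 in control EV and 11717 in unexposed. The sum was 0.889 times control EV in miR-93 EV (0.867 to 0.912) and 0.904 times in miR-17 EV (0.881 to 0.927), and in control EV it was 1.11 times unexposed (1.08 to 1.14). Sdha, the flavoprotein that binds succinate, had 4643 in miR-93 EV, 4845 in miR-17 EV, 5235 in control EV and 4826 in unexposed. Sdhb had 3223 in miR-93 EV, 3086 in miR-17 EV, 3660 in control EV and 3051 in unexposed. Sdhc, a membrane anchor, had 2103 in miR-93 EV, 2218 in miR-17 EV, 2181 in control EV and 2323 in unexposed, and was the member without its highest level in control EV. Among the 4, only Sdhd passed the threshold, in control EV over unexposed. The authors' deposited log2 values went the other way for Sdhb, with a difference of -0.26 in control EV over unexposed where the counts gave 0.26. With them the median of the complex was -0.03 in miR-93 EV and 0.06 in miR-17 EV over control EV, where the counts gave -0.18 in each, and -0.06 in control EV over unexposed, where the counts gave 0.19.

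The 8 assembly and accessory factors had lower counts and wider spreads, with a median highest-to-lowest ratio of 1.38. Ndufaf2, a complex I assembly factor related to Ndufa12, had 115.9 normalized counts in miR-93 EV, 126.0 in miR-17 EV, 171.0 in control EV and 156.0 in unexposed. It was 0.678-fold in miR-93 EV (0.530 to 0.865) and 0.737-fold in miR-17 EV (0.581 to 0.935) over control EV, and 0.743-fold in miR-93 EV over unexposed (0.582 to 0.948). Ndufaf5, which modifies a core subunit of complex I, had 113.2 in miR-93 EV, 94.1 in miR-17 EV, 144.1 in control EV and 105.4 in unexposed, with control EV the highest. Ndufaf1, an early assembly factor of complex I, had 172.9 in miR-93 EV, 194.3 in miR-17 EV, 203.8 in control EV and 144.4 in unexposed, with unexposed the lowest. Atp5sl, which despite its symbol is known as an assembly factor of complex I, had 326.8 in miR-93 EV, 334.6 in miR-17 EV, 340.8 in control EV and 409.9 in unexposed, with unexposed the highest.

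The authors' deposited table of fold changes, with 5721 genes, held 8 of the 92 members: Atp5e, Ndufa11, Ndufb6, Ndufaf5, Ndufaf6, Cox4i2, Cox6b2 and Cox7a1. The last 3 had under 30 reads in every library. The authors' deposited table gave log2 fold changes for Atp5e of 1.15 in miR-93 EV and 1.39 in miR-17 EV over control EV, and of -1.06 in control EV over unexposed. For Ndufb6 the authors' deposited table gave 1.14, 1.29 and -1.09 in the same pairs, and for Ndufa11 it gave 1.01, 1.003 and -0.70. These had the same signs as the ratios of counts and were larger: the counts gave Atp5e 0.56, 0.48 and -0.33 on the log2 scale. For Ndufaf5 the authors' deposited table gave -0.91, -1.02 and 1.04, where the counts gave -0.35, -0.61 and 0.45. For Ndufaf6, a further assembly factor of complex I, the authors' deposited table gave 0.14, 0.51 and 1.22, while none of its ratios of counts was called. How the authors' log2 values were made from the reads is not given in the sources used here.

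Other genes of mitochondrial energy metabolism, taken from lists, were set beside the subunits. Over all genes, 12.2% were called higher and 9.56% lower in miR-93 EV over control EV, 11.9% and 10.1% in miR-17 EV over control EV, and 8.26% and 8.72% in control EV over unexposed, and the counts below are to be read against these shares. Of 20 genes of the tricarboxylic acid cycle and pyruvate dehydrogenase, 4 were called higher and 0 lower in miR-93 EV over control EV. In miR-17 EV the counts over control EV were 5 higher and 1 lower. Against unexposed, control EV had 0 higher and 2 lower. Dld, the shared dihydrolipoyl dehydrogenase, had 1124 normalized counts in miR-93 EV and 1098 in miR-17 EV, against 736.7 in control EV, with 968.5 in unexposed. Mpc2, a subunit of the mitochondrial pyruvate carrier, had 284 in miR-93 EV and 297 in miR-17 EV, against 199 in control EV, with 244 in unexposed. Both genes were lowest in control EV.

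Of 17 electron carrier and ubiquinone genes, 3 were called higher and 1 lower in miR-93 EV over control EV, while miR-17 EV had 4 higher and 1 lower, and none was called either way in control EV over unexposed. Etfa, a subunit of the electron transfer flavoprotein, was 1.47-fold in miR-93 EV (1.28 to 1.70) and 1.54-fold in miR-17 EV (1.34 to 1.78) over control EV. Of 36 further assembly factors, 4 were called higher and 2 lower in miR-93 EV over control EV. In miR-17 EV 1 was higher and 1 was lower over control EV, and control EV had 0 higher and 1 lower over unexposed. The higher calls were no more frequent than over all genes. Cox20, an assembly factor of complex IV, was 1.66-fold in miR-93 EV (1.27 to 2.21) and 1.60-fold in miR-17 EV (1.22 to 2.13) over control EV.

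Of 14 measured regulators of mitochondrial gene expression, 1 was called higher and 0 lower in miR-93 EV over control EV, while miR-17 EV had 1 higher and 1 lower, below the 12.2% and 11.9% of all genes called higher. In control EV over unexposed 2 were called higher and 1 lower. Gabpa, a subunit of the ETS factor GABP that overlaps Atp5j, had 521.4 normalized counts in miR-93 EV, 523.6 in miR-17 EV, 402.9 in control EV and 515.3 in unexposed. Tfb2m, a mitochondrial transcription factor, had 153 in miR-93 EV, 153 in miR-17 EV, 173 in control EV and 114 in unexposed. Twnk, the mitochondrial DNA helicase, had 119.5 in miR-93 EV, 94.96 in miR-17 EV, 147.6 in control EV and 94.8 in unexposed. Of 10 genes around succinate handling and mitochondrial carriers, Hif1a was the 1 called, at 1.32-fold in miR-93 EV (1.21 to 1.43) and 1.30-fold in miR-17 EV (1.19 to 1.41) over control EV.

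The members are short genes, with a median of 1737 bases of exon against 4512.5 bases for measured protein-coding genes, and calls with control EV were counted by transcript length. Of 45 members whose longest coding transcript is under 1000 bases, 2 were called higher and 9 lower in control EV over unexposed, and of 40 longer members 8 were called higher and 3 lower. Over control EV, miR-93 EV had 12 short members higher and 2 lower, beside 5 long members higher and 1 lower. For miR-17 EV the counts were 10 higher and 1 lower among short members, beside 6 higher and 4 lower among long ones. Across the 86 members, which are genes and not independent replicates, the log2 ratio had Spearman correlations with exon length of -0.03 in miR-93 EV and -0.12 in miR-17 EV over control EV and 0.03 in control EV over unexposed, beside 0.07, 0.09 and -0.10 across protein-coding genes. The same split over all genes was not made. Reads were longest in control EV, as given above, and the part of read length in these calls was not tested. Subtracting a cubic in log2 exon length, fitted over all genes tested in a pair, left the members' medians at 0.03 in miR-93 EV and 0.02 in miR-17 EV over control EV. The exon length merges all annotated exons of a gene, or is the deposited span where no exon length was found. It is not the transcript length of the split, and for Ndufb7 the lengths were 4522 and 623 bases. The correlations and the cubic therefore do not describe that split.

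Near-identical copies and overlaps limit many members. In 23 of 91 members with an annotated coding transcript, at least 10% of the 40-base stretches also stand in transcripts of other genes, and 27 members overlap another gene of the table. Members with copies that were named above without that share include Ndufs3 (41.9%), Ndufs5 (33.7%), Cox5b (29.2%) and Cox7a2l (19.4%). Further ones are Cox6a1 (17.5%), Atp5g2 (17.4%), Cox6c (16.2%) and Uqcr11 (15.5%). Over control EV, 9 of the 23 members with copies were called higher in miR-93 EV and 8 in miR-17 EV, against 8 and 8 of the 62 measured members without. Over all genes, 12.2% in miR-93 EV and 11.9% in miR-17 EV were called higher over control EV, and 5.14% and 4.92% over unexposed. Over unexposed the members with copies had medians of 0.13 in miR-93 EV and 0.15 in miR-17 EV, against 0.03 and 0.00 for those without. Without the members with copies, 9 were called higher in each mimic library over control EV, and 1 in miR-93 EV and 3 in miR-17 EV over unexposed. These counts still hold Atp5l-ps1, which has no annotated coding transcript and was called higher in each mimic library over control EV. Across the measured members the log2 ratio over unexposed had a Spearman correlation with GC content of -0.27 in miR-93 EV and -0.24 in miR-17 EV, beside -0.36 and -0.34 across protein-coding genes, a description over genes that share the 2 libraries of a pair.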

How the data were processed

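RNA of 4 biological replicates was pooled into 1 library per group, per the labels' protocols, after miRNeasy extraction, and libraries were made with an Ion Total RNA-Seq kit. The table holds deposited read counts for 38087 genes, which are whole numbers, with the average coverage of each gene per base, its GC percent and its span, per the file headers. The authors also deposited log2 values, which were centred gene by gene on the 4-library median, and log2 fold changes for 5721 genes. The genome build mm10 and the tool DESeq are named in the submitters' processing notes. For the aligner, annotation, strand setting and treatment of introns, the entry is: not given in the sources used here.

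Counts were divided by median-of-ratios size factors. Log2 ratios used a pseudocount of 1. Ratios have 95% exact conditional (Clopper-Pearson) intervals, and calls needed a level 25% above the other library, or the inverse, and a mean of 20 normalized counts. With 1 library in each group there are no p-values. Each of the 6 pairs was computed on the whole table. The calling rule was also run on simulated counts that held counting error only, with planted changes of 1.5- or 2-fold. Spread between cultures and from PCR was not simulated, so that run cannot show how often such spread leads to calls. Exon lengths come from GENCODE M21, promoters and microRNAs from RefSeq GRCm38.p6, both of the mm10 build. Copies were sought as shared 40-base stretches between transcripts.

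The members and lists were chosen with earlier results of these data known. Named members were, per pair and direction, up to 5 with the largest ratio among those called with a mean of at least 100 normalized counts, the 2 highest per kb in each complex, the tissue isoforms and complex II. Atp5b, Atp5e, Atp5k, Ndufa10, Ndufaf6, Ndufv2, Uqcr11 and Uqcrb were named after their values were seen. Python 3.11.15 with NumPy 2.4.6, SciPy 1.17.1 and pandas 2.3.3, and R 4.3.3 with edgeR 4.0.16 for the TMM factors, were used.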

Additional observations from a re-analysis of the deposited data

How the results depend on the processing

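With 1 library in each group no replicate could be left out. No paired analysis was possible because each group holds 1 library and no result comes from a test. Leaving out members with copies and leaving out Atp5o were alternatives chosen after seeing the data. Leaving out members with copies kept Atp5l-ps1, for which no share of copies was measured. Of 654 values under the alternatives for the 43 ratios of called members that the naming rule picked, 557 kept their direction and side of the threshold, 95 kept only their direction and 2 reversed: with the authors' log2 values, control EV over unexposed was 0.13 for Ndufa3 and -0.093 for Ndufaf3. The settings that change the minimum or leave members out cannot alter the ratio or call of a picked member that is kept. Their values, 30 to 43 per setting, are among the 557 by construction. Ratios of members that were not called are outside this count. Some of them, such as those of Sdhb and Atp5b in control EV over unexposed, also had the opposite sign with the authors' log2 values. With those values the complex II median was 0.056 in miR-17 EV over control EV, 0.070 in miR-17 EV over unexposed and -0.034 in miR-93 EV over control EV, and the members' median was 0.14 in miR-93 EV over control EV and 0.12 for miR-17 EV. They gave 30 members higher and 12 lower in miR-17 EV over control EV, 10 lower in miR-93 EV over control EV, 21 lower in control EV over unexposed, 4 lower in miR-17 EV over unexposed, 9 higher in miR-93 EV over unexposed, while miR-93 EV over miR-17 EV had 3 higher and 4 lower. At 1.5-fold the members past the threshold, higher then lower, were 2 and 0 in miR-93 EV and 5 and 1 in miR-17 EV over control EV, 0 and 1 in control EV over unexposed, 1 and 0 in miR-93 EV and 2 and 0 in miR-17 EV over unexposed, and 1 lower in miR-93 EV over miR-17 EV. At 2-fold 1 was higher in miR-17 EV over control EV and 0 were called either way in the other pairs. No share over all genes was computed for the authors' log2 values, for 1.5- and 2-fold or for the other scalings. Counts of calls under those settings therefore cannot be set against a background. Leaving members out does not change the shares over all genes given above. Total counts gave 9 higher in miR-93 EV over unexposed. A minimum of 100 left 1 lower in miR-93 EV over miR-17 EV. Without members that overlap another gene, 11 were called higher in miR-93 EV and 9 higher and 3 lower in miR-17 EV over control EV, and the members above 0 numbered 28 in miR-17 EV over control EV and 29 in miR-93 EV over miR-17 EV. Without members with copies, 9 were called higher and 1 lower in miR-93 EV and 9 higher in miR-17 EV over control EV, 6 higher and 8 lower in control EV over unexposed, 1 higher in miR-93 EV and 3 in miR-17 EV over unexposed, and 1 lower in miR-93 EV over miR-17 EV, and the members above 0 numbered 28 in miR-17 EV over control EV and 33 in miR-17 EV over unexposed. Without assembly and accessory factors 3 were lower in miR-17 EV over control EV and 1 was lower in miR-93 EV over unexposed. Per kb of deposited span instead of exon, the ranks within a complex were 3 for Atp5a1, 16 for Atp5o, 6 for Ndufa13, 2 for Sdhb, 1 for Sdhd and 3 for Uqcrh. Fewer members were tested without overlaps or copies, and the cause of the other differences was not tested. Counting error is widest for the assembly factors and for the isoforms of few reads.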
